A study of Homo sapiens with 5 samples.

Results

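The stretch of human chromosome 9 from 4.90 to 5.65 Mb (hg18) holds JAK2, CD274 and PDCD1LG2, and its open chromatin was compared in 5 B-lineage tumour cell lines by DNase-seq. The members are all peaks of the deposited lists that overlapped this window. They numbered 97 of 109231 peaks on chromosomes 1 to 22 and X, and joined into 52 of 59212 merged regions, where overlapping peaks of any lines form 1 region. JAK2 was placed at 4.975 to 5.118 Mb, CD274 at 5.440 to 5.461 Mb and PDCD1LG2 at 5.500 to 5.561 Mb, so distances from a gene's start are good to about 1 kb. Exons and introns were not used here.

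The Hodgkin group was L1236, L428 and L591, lines grown from Hodgkin lymphoma. The non-Hodgkin group was Reh, a pro-B lymphoblastic leukaemia line, and Namalwa, a line of Burkitt lymphoma. No line had been treated, all were at passage 7, and nuclei had been cut with DNase I at 12 U/ml in L591 and Namalwa and at 6 U/ml in the other lines. Each line gave 1 list, so the lines are the replicates of their group, no error within a line was available, and the p-values measure the spread between lines. The L1236 list held 25646 peaks, that of L428 23288 and that of L591 26612, against 27925 in the Reh list and 5760 in the Namalwa list, and the read depth behind them is unknown. Over all chromosomes used, 98.7% of the Namalwa regions also held a Reh peak, the highest share of the 20 ordered pairs of lines, and whether these lists are independent was not tested. The B cell identity of the lines was not checked by markers, since hg18 positions of other genes were not used here.

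JAK2 is a tyrosine kinase bound to cytokine receptors, and once activated it phosphorylates STAT transcription factors, which enter the nucleus and switch on genes. CD274 encodes PD-L1 and PDCD1LG2 encodes PD-L2, membrane ligands of the T cell receptor PD-1 that restrain T cell activity, and CD274 is a known target of interferon and STAT signalling. In Hodgkin lymphoma this chromosome band is often gained, and the malignant cells are known for high PD-1 ligand levels. The lists give no copy number, and copies of the window and openness of its chromatin cannot be told apart from them.

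Promoters are shown for JAK2 and CD274, the genes that had an entry in the reference used, and PDCD1LG2 had none. All 3 Hodgkin lines had a peak within 2 kb of the JAK2 and CD274 starts and neither non-Hodgkin line did. The share of all gene starts with this pattern was not computed. The L1236 peak at the CD274 start stood at percentile 13.7 of its list. With each list limited to its 5760 highest scores, 2 Hodgkin lines kept a peak at JAK2 and 1 at CD274. The RefSeq table used here (GRCh38.p14, 250 bases before to 50 after a start) matched 2 of the 3 genes, with 4 entries for JAK2 and 1 for CD274, and the JAK2 entry that holds a searched motif is printed. Sequences run 5′ to 3′ on the plus strand, with motif matches in capitals. CD274 lies at chr9:5450292-5450591 and the JAK2 entry at chr9:4985022-4985321, both in GRCh38.p14.
CD274 promoter: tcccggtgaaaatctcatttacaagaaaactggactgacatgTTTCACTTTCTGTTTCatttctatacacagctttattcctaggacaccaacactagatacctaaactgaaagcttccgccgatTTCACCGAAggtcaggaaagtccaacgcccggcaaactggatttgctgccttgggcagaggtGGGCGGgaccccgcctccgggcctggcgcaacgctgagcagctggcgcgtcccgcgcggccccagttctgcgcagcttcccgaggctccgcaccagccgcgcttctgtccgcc
JAK2 promoter, entry 3: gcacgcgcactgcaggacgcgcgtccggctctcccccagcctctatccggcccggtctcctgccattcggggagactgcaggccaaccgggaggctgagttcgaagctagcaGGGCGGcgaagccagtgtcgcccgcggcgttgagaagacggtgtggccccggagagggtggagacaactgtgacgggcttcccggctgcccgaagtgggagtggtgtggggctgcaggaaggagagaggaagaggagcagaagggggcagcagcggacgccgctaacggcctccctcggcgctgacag
The peaks are in hg18, so which of these bases they covered is not known.

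Each promoter was searched on both strands for AP-1 (TGANTCA), NF-kB (GGG, any 3 bases, TTCC), STAT (TTCNNNGAA), interferon response (GAAA, any 2 bases, GAAA), cyclic AMP response (TGACGTCA) and GC box (GGGCGG) letters. In the CD274 promoter the interferon response letters matched on the minus strand at 2 places that overlap each other, read on the plus strand as TTTCACTTTC at -208 and TTTCTGTTTC at -202 from the start. These letters occur in 3.57% of the 35116 promoters in the table. The STAT letters matched as TTCACCGAA at -125, as they do in 7.66% of promoters, and a GC box lay at -63. The printed JAK2 entry had a GC box at -138 and no other match, and 45.0% of promoters hold one. By composition, the CD274 promoter had 22 CpG dinucleotides and 57.3% GC, beside medians of 14 and 58.7% over the table. The 4 JAK2 entries ranged from 11 to 39 CpG dinucleotides and from 50.3% to 73.3% GC, and 2 of them were at or below both medians. The printed entry, which was chosen for holding a GC-rich motif, had 28 and 69.0%. A match describes letters only.

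Peaks of the window were more frequent in every Hodgkin list than in either non-Hodgkin list. L1236 had 38 peaks, L428 had 18 and L591 had 30, against 10 in Reh and 1 in Namalwa. As a share of the line's list this was 0.148% in L1236 (exact Clopper-Pearson 95% interval 0.105 to 0.203), 0.0773% in L428 (0.0458 to 0.122) and 0.113% in L591 (0.0761 to 0.161). The share was 0.0358% in Reh (0.0172 to 0.0658) and 0.0174% in Namalwa (0.00044 to 0.0967). The Reh interval overlaps that of L428, and the Namalwa interval, from 1 peak, overlaps those of L428 and L591. These intervals cover counting error only. By the shares themselves the groups did not overlap, with L1236 highest. Every Hodgkin share lay above both non-Hodgkin shares in 21.9% of the 3547 tiled windows of this length that held a peak. The mean share was 0.113% ± 0.0354 (SD, n = 3) in the Hodgkin lines and 0.0266% in the 2 non-Hodgkin lines. Their difference of 0.0861 percentage points was reached or exceeded in 2 of the 10 splits of the lines into 3 and 2, the actual groups counted as 1 of them (two-sided exact permutation p = 0.2). Benjamini-Hochberg adjustment over the window and its 5 intervals gave 0.24. The smallest p this design allows is 0.1, so no difference could pass 0.05. The difference was 0.0769 percentage points among the lines cut at 6 U/ml and 0.0954 at 12 U/ml, where each group had 1 line.

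Set beside the tiled windows, the peak number of L1236 and L591 stood high in their own lists and that of Reh did not. Windows with at least as many peaks made up 2.23% for L1236, 2.31% for L591 and 8.26% for L428, against 27.1% for Reh and 48.9% for Namalwa. The median window held 4, 5 and 4 peaks in L1236, L591 and L428, against 3 in Reh and 0 in Namalwa. With each list limited to its 5760 highest scores, 11 peaks of L1236, 6 of L428 and 6 of L591 remained, against 2 of Reh and 1 of Namalwa. The windows of the same length before and after this one held fewer peaks of each Hodgkin line. The one before, from 4.15 to 4.90 Mb, held 13 (L1236), 14 (L428) and 15 (L591) peaks, against 4 of Reh and 1 of Namalwa. As shares of the list these were 0.0507%, 0.0601% and 0.0564%, against 0.0143% and 0.0174%, so the groups did not overlap there either. The one after, from 5.65 to 6.40 Mb, held 4, 6 and 13 in the same order, against 5 and 2, and its list shares overlapped between the groups.

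**Figure D1:**
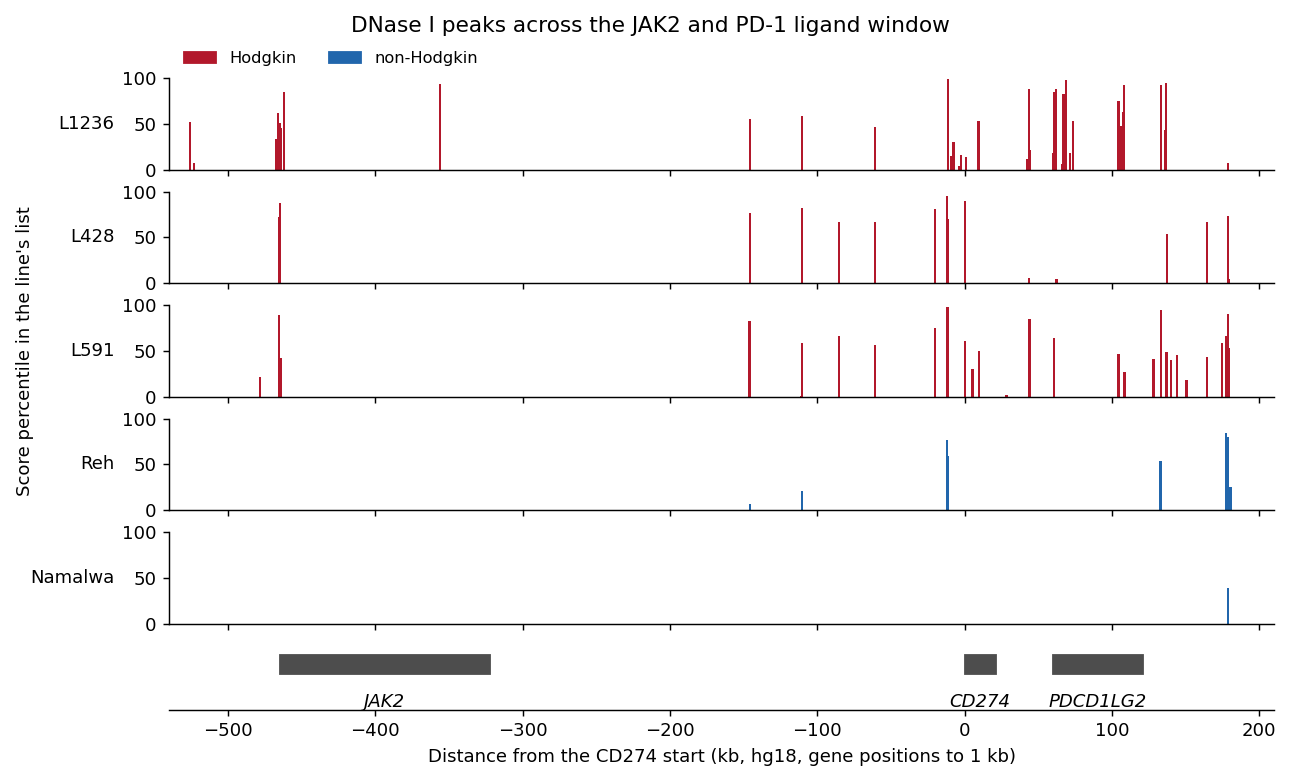
Peaks of the 5 lines by distance from the CD274 start in kb (hg18), with bar height giving the percentile of the peak's score within the line's list and bars drawn at least 1.5 kb wide. Hodgkin lines (38, 18 and 30 peaks) are in red and non-Hodgkin lines (10 peaks and 1) in blue, and grey boxes mark the genes.

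The 52 merged regions were for the most part present in Hodgkin lines alone. Of these, 45 (86.5%) had a peak in at least 1 Hodgkin line and in neither non-Hodgkin line, beside 55.9% of all merged regions. Without L1236 they numbered 25 of 32 (78.1%), beside 44.8% of all regions merged without that line. Regions with peaks in both groups numbered 6 (11.5%, beside 21.5%). A single region, or 1.92%, had a non-Hodgkin peak alone, beside 22.6% of all merged regions. Regions in all 3 Hodgkin lines and neither non-Hodgkin line numbered 5, or 9.62% beside 4.33% of all merged regions. Regions in L428 and L591 alone numbered 5 (9.62% beside 5.74%), in L1236 and L591 alone 4 (7.69% beside 2.65%), in all lines but Namalwa 3 (5.77% beside 4.05%) and in all 5 lines 1 (1.92% beside 5.12%). No region belonged to both Reh and Namalwa alone, a pattern that 1.04% of merged regions had. Because Namalwa had 1 peak here, absence from the non-Hodgkin group rests mainly on Reh. Without Reh, 50 of 51 regions (98.0%) had Hodgkin peaks alone, beside 89.1% of all regions merged without Reh. Without Namalwa the count was 45 of 52 (86.5%), beside 56.0%.

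**Figure D2:**
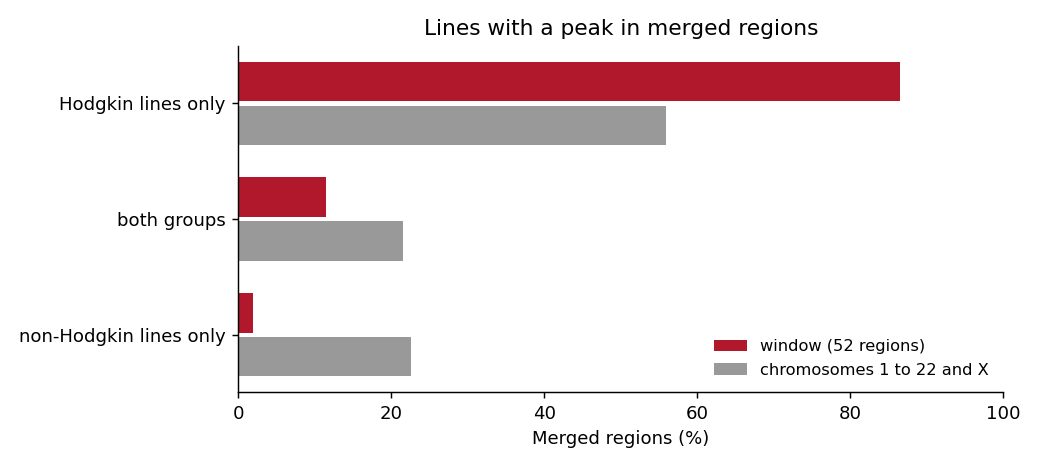
Percentage of merged regions with peaks in Hodgkin lines only, in both groups or in non-Hodgkin lines only, for the 52 regions of the window (red) and for all 59212 merged regions (grey). Hodgkin-only regions made up 86.5% of the window and 55.9% of all regions.

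At the start of the kinase gene JAK2, every Hodgkin line had peaks and both other lists had none. How many other gene starts had this pattern was not computed. The merged region over the start ran from 4974361 to 4975440. Its leading peak had a score, the authors' peak area, of 6280 in L1236, 8720 in L428 and 13600 in L591, and no peak in Reh or Namalwa. Scores have no scale common to the lists, so ranks within a list are used, and the percentiles were 51.3 in L1236, 87.6 in L428 and 88.6 in L591. The start region was thus in the upper part of the L428 and L591 lists and near the middle of the L1236 list. A second region, from 4975451 to 4976000, followed within the gene at percentiles 45.5 in L1236, 14.0 in L428 and 42.5 in L591. L1236 had further peaks of its own around the start, at 4972861 to 4973130 and 4973601 to 4974110 before it. Another, at 4977791 to 4978390 (percentile 84.2), lay 3.09 kb after it.

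The rest of the JAK2 body was almost free of peaks in all 5 lists. Its single peak was in L1236, from 5083651 to 5083910 and 109 kb past the start, and was narrow and high. It held 22648 score units in 260 bp, or 87.1 per bp, at percentile 98.8 of the L1236 list by score per bp and 93.4 by score. The nearest Reh peak to the JAK2 start was 192 kb away and the nearest Namalwa peak 305 kb. The peak-free stretch around the start was 511 kb long in Reh and 949 kb in Namalwa. Stretches at least that long made up 4.15% of the 27902 gaps between Reh peaks and 12.7% of the 5737 gaps between Namalwa peaks. These are shares of the number of gaps, and a given position falls more often in a long gap than in a short one. The share of bases in such stretches is therefore larger, and it was not computed.

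Within the JAK2 interval L1236 had 4 peaks, L428 had 2 and L591 had 2, against 0 in both Reh and Namalwa. The mean share of the list was 0.0106% ± 0.00439 (SD, n = 3) in the Hodgkin lines, and the groups did not overlap, as was also so in 16.3% of tiled windows of this length. The two-sided exact permutation p was 0.1, the smallest possible, and 0.2 after adjustment. The difference was 0.0121 percentage points at 6 U/ml and 0.00752 at 12 U/ml. The 75 kb upstream of JAK2 had the same counts, with the peaks over the start in L428 and L591 counted in both intervals. The exact permutation p was also 0.1 (14.2% of tiled windows of this length had non-overlapping groups in this direction). With each list limited to its 5760 highest scores, L1236 had no peak upstream and the exact permutation p was 0.4 there, against 0.1 for JAK2. In the upper 50% of each list, or by peak centres, it was 0.2 for both intervals. By share of chromosome 9 peaks or of covered bases it stayed 0.1 for both.

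**Figure D3:**
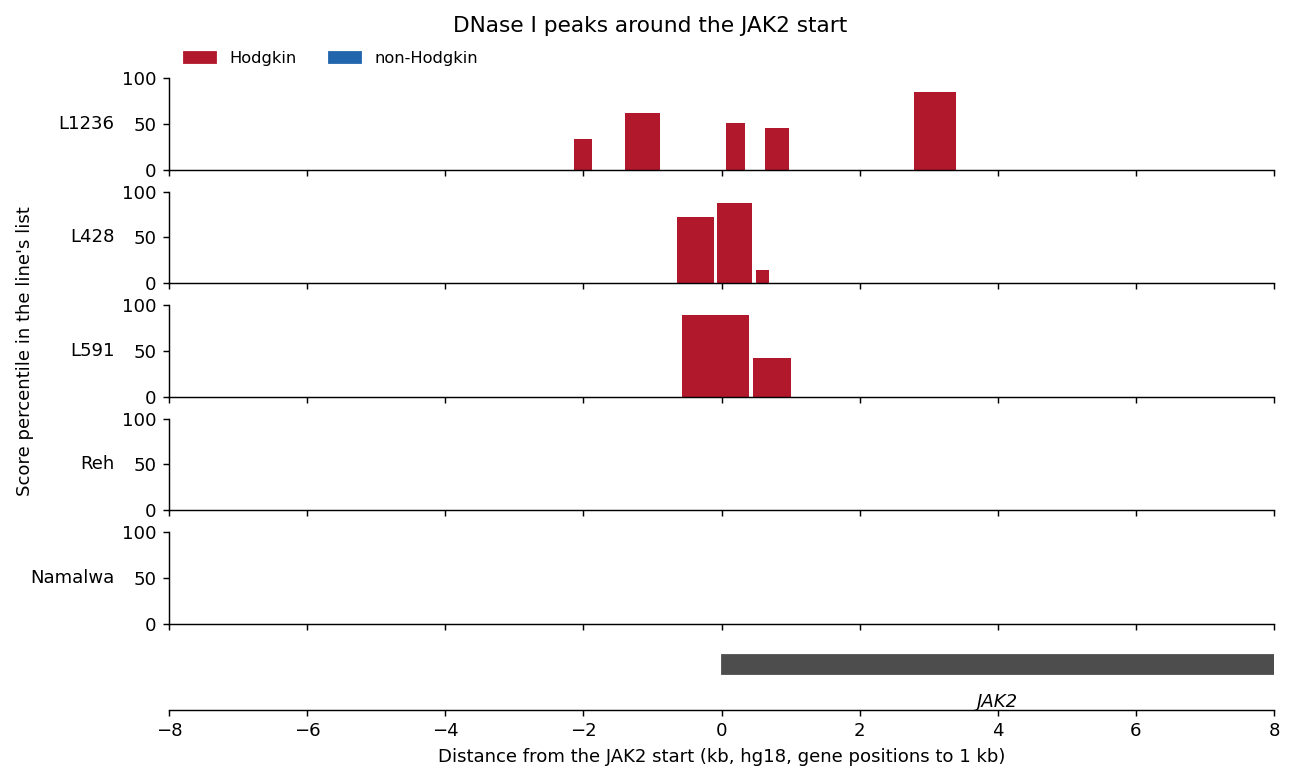
Peaks within 8 kb of the JAK2 start, by distance in kb (hg18) and to scale in width, with the percentile of the score within the line's list as height. The Hodgkin lines (red) had 5, 3 and 2 peaks there, and Reh and Namalwa had none.

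The ligand genes had peaks in the Hodgkin lists and none in the others. From the CD274 start to the PDCD1LG2 end, L1236 had 18 peaks, L428 had 3 and L591 had 8, against 0 in Reh and 0 in Namalwa. Covered bases numbered 8560 in L1236, 820 in L428 and 4170 in L591. The mean share of the list was 0.0377% ± 0.0294 (SD, n = 3) in the Hodgkin lines (two-sided exact permutation p = 0.2, adjusted 0.24). The groups did not overlap, as in 15.6% of tiled windows of this length, but the Hodgkin lines differed widely among themselves. The difference was 0.0415 percentage points at 6 U/ml and 0.0301 at 12 U/ml, and without L1236 it was 0.0215.

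At the CD274 start, L428 and L591 shared a region from 5440251 to 5440730. The score was 9568 in L428 and 5632 in L591, at percentiles 89.9 and 60.7, and Reh and Namalwa had no peak within 2 kb. The L1236 peak there, from 5440811 to 5441000, did not touch that region and was weak, with a score of 3328 at percentile 13.7. L428 thus had its highest-ranking ligand peak at the CD274 start, whereas L1236 ranked low there. Farther into the gene, L1236 and L591 shared a region from 5449281 to 5449770, about 9.5 kb past the start, at percentiles 52.8 and 50.4. L591 also had a peak of its own at 5445161 to 5445530.

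Between the ligand genes, 1 region was common to the Hodgkin lines and absent from Reh and Namalwa. It ran from 5483061 to 5484550, some 16 kb before the PDCD1LG2 start, and its leading peak had a score of 17080 in L1236, 1472 in L428 and 11384 in L591. The percentiles were 88.4, 5.49 and 84.3, so that the region was strong in L1236 and L591 and among the weakest peaks of the L428 list.

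Of the 3 genes, PDCD1LG2 had the widest range of peak numbers among the Hodgkin lines. L1236 had 12 peaks in the gene, L428 had 1 and L591 had 3, against none in Reh or Namalwa. All 12 merged regions of the gene held an L1236 peak, as did 41.1% of all merged regions, and 8 of them held no other, as in 19.8% of all merged regions. The L1236 peaks lay in 2 stretches. The first held 8 peaks over 13.4 kb from the gene's start, with the highest score at 5508281 to 5509690 (35696, percentile 97.4, 1410 bp wide). The second held 4 peaks over 4.48 kb and began 44.3 kb past the start.

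Of these regions, L591 shared the one at the start, from 5500351 to 5501160, at percentile 63.6 against 84.5 in L1236. L591 also shared 2 in the second stretch, at 5544191 to 5544630 (46.1 against 75.2 in L1236) and at 5548131 to 5548740 (26.7 against 91.8). The single L428 peak in PDCD1LG2, from 5502251 to 5502450, was at percentile 4.69 and lay 2.25 kb past the start, inside an L1236 peak at percentile 88.4. The ligand peak of highest rank was thus at CD274 in L428 and in PDCD1LG2 in L1236.

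**Figure D4:**
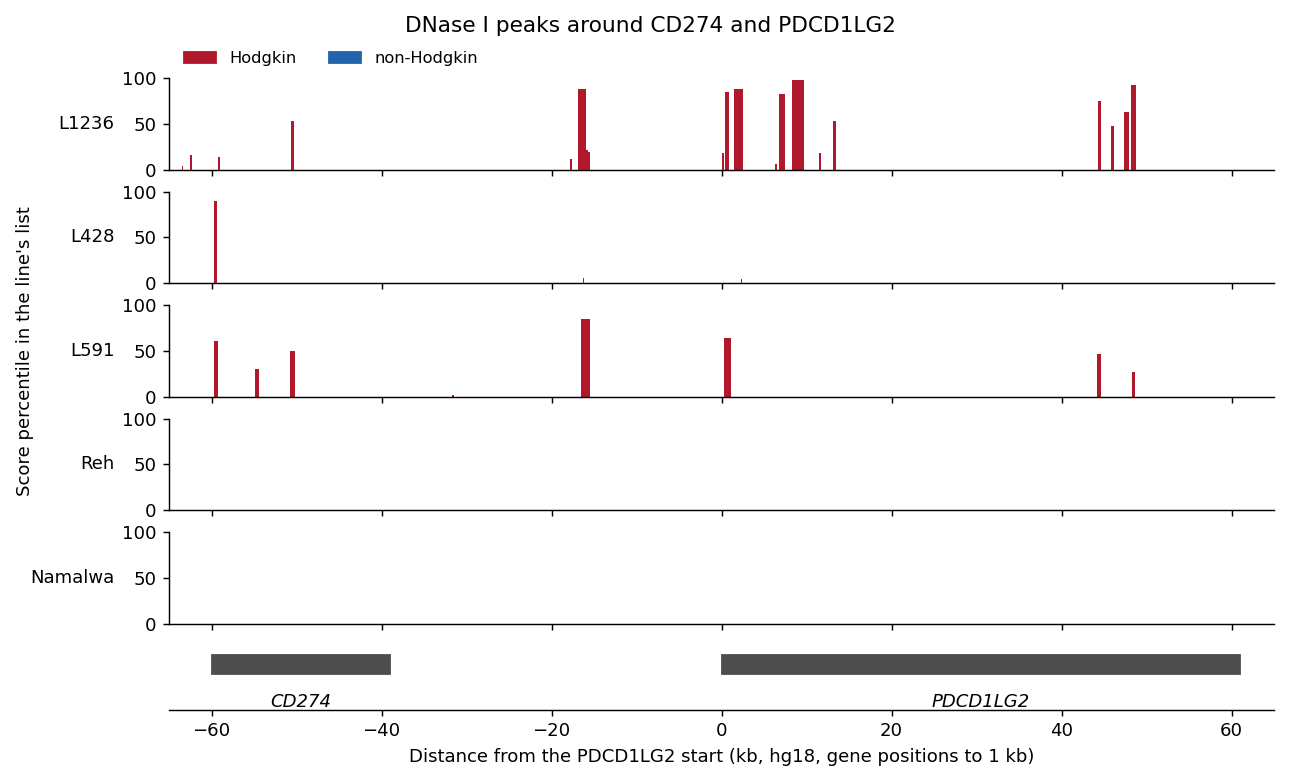
Peaks around CD274 and PDCD1LG2 by distance from the PDCD1LG2 start in kb (hg18), with the percentile of the score within the line's list as height and bars drawn at least 0.2 kb wide. L1236 has 12 peaks in PDCD1LG2, L428 has 1 at percentile 4.69, L591 has 3, and Reh and Namalwa have none.

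Sites shared by the groups lay outside the 3 genes. In the RefSeq order of GRCh38.p14, INSL6, INSL4, RLN2, RLN1 and PLGRKT lie between JAK2 and CD274, and RIC1 follows PDCD1LG2. No region was assigned to them, since their hg18 positions were not used here. The broadest region of the window, from 5427181 to 5429350, lay about 11 kb before CD274 and had peaks in L1236, L428, L591 and Reh. Its leading peak scored 48968 in L1236, 12688 in L428 and 29976 in L591, against 4056 in Reh. It was the highest-scoring peak of the window in each Hodgkin line, at percentiles 98.5, 94.8 and 98.3, and stood at 76.8 in Reh. Regions at 5293621 to 5294500 and 5329141 to 5329690 were found in the same 4 lines. The first stood at percentiles 55.0, 76.7 and 82.7 in L1236, L428 and L591, against 6.32 in Reh. The other stood at 58.0, 82.5 and 58.5, against 21.5 in Reh.

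A region at 5379001 to 5379490 was present in the 3 Hodgkin lines alone, at percentiles 46.4, 66.7 and 56.9 in L1236, L428 and L591. L428 and L591 shared 2 more between JAK2 and CD274, at 5354381 to 5354970 and 5419881 to 5420330, which L1236 lacked. In this interval the peak counts were 8, 8 and 7 in L1236, L428 and L591, against 5 in Reh and 0 in Namalwa. The mean share was 0.0306% ± 0.00406 (SD, n = 3) in the Hodgkin lines and 0.00895% in the non-Hodgkin lines (two-sided exact permutation p = 0.1, adjusted 0.2). The groups did not overlap, as in 18.9% of tiled windows of this length. The difference was 0.0217 percentage points, with 0.0149 at 6 U/ml and 0.0263 at 12 U/ml, and without Namalwa it was 0.0127.

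Downstream of PDCD1LG2 the groups overlapped. L1236 and L428 had 4 peaks each and L591 had 12, against 5 in Reh and 1 in Namalwa. The difference was 0.00832 percentage points and had an exact permutation p of 1 (two-sided, also after adjustment). Without L591 it was -0.00125. The only region of the window with a peak in all 5 lines ran from 5618111 to 5619160. Its highest-ranking peak stood at percentile 7.02 in the L1236 list, 72.8 in that of L428 and 90.2 in that of L591, against 79.6 in Reh and 38.8 in Namalwa. This was the only Namalwa peak, and the highest Reh score lay beside it at 5616921 to 5617600 (percentile 84.3), in a region shared with L591. The highest-ranking site of this interval in L591, from 5572881 to 5574000, stood at percentile 92.8 in L1236 and 95.04 in L591, against 54.2 in Reh. L428 and Namalwa had no peak at that site. A region at 5576401 to 5577360 was present in the Hodgkin lines alone, at percentiles 94.2, 53.6 and 49.0 in L1236, L428 and L591.

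**Figure D5:**
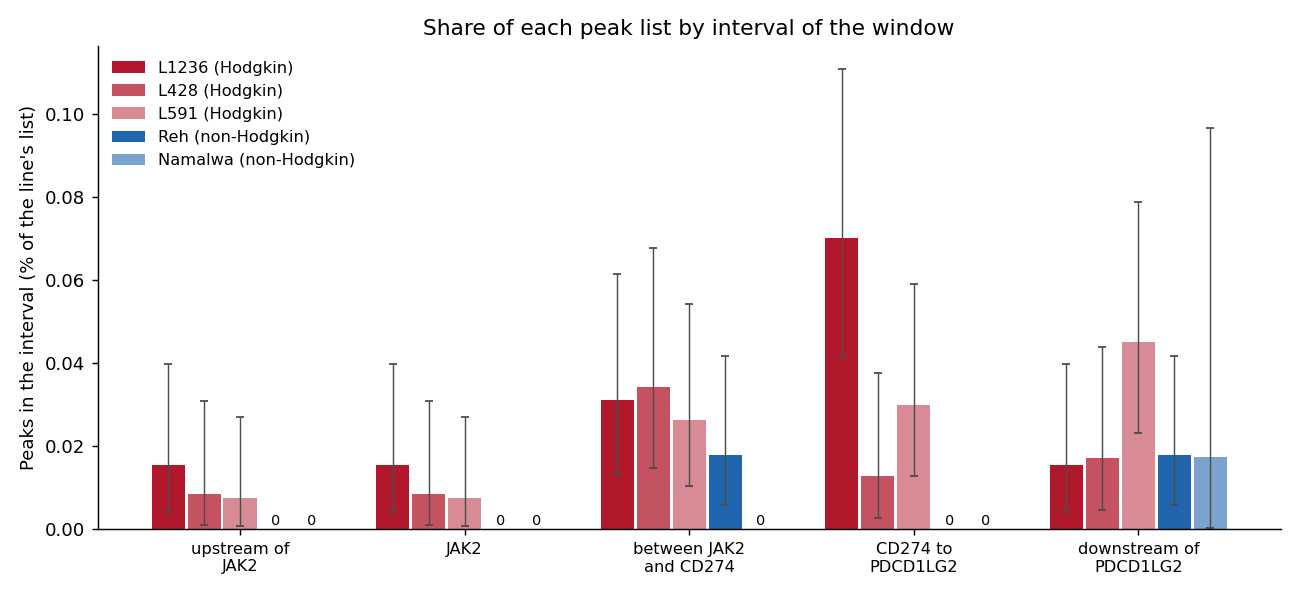
Peaks in each interval of the window as a percentage of the line's list, with exact 95% Clopper-Pearson intervals (counting error only) and 0 written where a line had no peak. Reh and Namalwa had no peak upstream of JAK2, in JAK2 or from CD274 to PDCD1LG2, and the groups overlap downstream of PDCD1LG2.

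Among the Hodgkin lines, more L428 regions were shared with L591 than with L1236, whereas L591 shared as many with L428 as with L1236. Of the 15 merged regions of L428 in the window, 14 (93.3%) had an L591 peak and 10 (66.7%) an L1236 peak, beside 65.7% and 43.3% for L428 over all chromosomes used. Of the 29 regions of L591, 14 were shared with L428 and 14 with L1236 (48.3% each, beside 55.1% and 40.2%). Of the 36 regions of L1236, 14 (38.9%) had an L591 peak and 10 (27.8%) an L428 peak, beside 42.5% and 38.4%. Regions with L1236 alone numbered 21, or 40.4% of the window's regions beside 19.8% of all merged regions, and those with L591 alone 9 (17.3% beside 12.5%). No region was present in L428 alone. Over all merged regions, that pattern made up the rest of the 41.3% held by 1 Hodgkin line alone, beyond L1236 (19.8%) and L591 (12.5%). Regions in 1 Hodgkin line and no other line numbered 30 (57.7% beside 41.3%). Of the 7 Reh regions, 5 (71.4%) also had an L1236 peak, 4 (57.1%) an L428 peak and 6 (85.7%) an L591 peak, beside 28.2%, 35.3% and 41.6% for Reh over all chromosomes used.

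By peak numbers over the 5 lines, the tiled windows most like this one lay on other chromosomes. The nearest was on chromosome 8 from 100.9 to 101.65 Mb, with 42, 18 and 28 peaks in L1236, L428 and L591, against 11 in Reh and 1 in Namalwa (Bray-Curtis distance 0.0355). The next lay on chromosome 15 from 49.9 to 50.65 Mb (distance 0.0595) and on chromosome 3 from 122.65 to 123.4 Mb (0.0606). The likeness is of 5 counts, and nothing else about these windows was compared.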

How the data were processed

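The DNase-seq peak list of each line was used. Per the submitters' processing notes, Bowtie 1.00 had mapped the reads to hg18. Reads were extended to 146 bp and binned at 10 bp, per the file headers. The deposited score is the authors' peak area, with no stated scaling to depth. No source used here gives the peak caller, a threshold or the depth, and the L1236 list alone lacks the mark qcTrimmed. Listed peaks went down to 3.67 score units per bp in Reh and to 12.0 in L1236.

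Peaks on chromosomes 1 to 22 and X were kept, and those sharing at least 1 bp were merged over all lines. Percentiles are ranks of the score within a list. Group means of list shares were compared by an exact permutation test over 10 splits, two-sided by absolute difference. Tiled windows hold at least 1 peak and are aligned to include the window. Regions named are those in all 3 Hodgkin lines alone, in both non-Hodgkin lines alone, in 4 or more lines or within 2 kb of a gene's start, and each line's highest-scoring peak. Other regions of JAK2, CD274 and PDCD1LG2 and of the neighbouring intervals were named after their values were seen. The window, its genes and these choices were set with earlier results of these data known. Merging was tested on simulated lists whose sites lay far apart, so the joining of close or chained peaks was not tested. Alternatives covered list length, share, overlap rule, peak width, window edges and each line left out. Python 3.11.15, numpy 2.4.6, pandas 2.3.3, scipy 1.17.1 and matplotlib 3.10.9 were used.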

Additional observations from a re-analysis of the deposited data

Results flagged for a closer look

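Downstream of PDCD1LG2 the difference between Hodgkin and non-Hodgkin lines had opposite signs at the 2 DNase I concentrations. At 6 U/ml it was -0.00152 percentage points of the list, with list shares of 0.0156% (L1236) and 0.0172% (L428) against 0.0179% (Reh). At 12 U/ml it was 0.0277, with 0.0451% in L591 against 0.0174% in Namalwa. The difference between concentrations was not tested, and at 12 U/ml each group had 1 line.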

How the results depend on the processing

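Of 62 alternatives of the 6 tested differences, 60 kept the direction, and the lowest exact permutation p was 0.1, which the design cannot go below. In JAK2, upstream of it and in the PD-1 ligand stretch neither non-Hodgkin line had a peak. The direction could therefore not reverse in those intervals, and only the alternatives of the other differences could have changed it. Downstream of PDCD1LG2 the difference was -0.00289 with lists of equal length. Leaving out 1 line gave 0.0684 to 0.104 for the window, 0.00805 to 0.0121 for JAK2 and for the stretch upstream of it, 0.0127 to 0.0306 between JAK2 and CD274, 0.0215 to 0.0501 for the PD-1 ligand stretch and -0.00125 to 0.0135 downstream of PDCD1LG2.

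With lists of equal length there were 18 merged regions, 16 of them with Hodgkin peaks alone and 1 with all 3 Hodgkin lines alone, and with the upper 50% of each list 29, 25 and 3. Regions of all 3 Hodgkin lines alone numbered 3 when centres had to lie within 250 bp, and 2 when every peak was 200 bp wide. For the shorter lists and these settings the shares over all merged regions were not computed. These counts therefore have no background to be read against. Leaving out 1 line gave 32 to 52 merged regions, 25 to 50 with Hodgkin peaks alone and 5 to 10 with every remaining Hodgkin line alone. The last was 10 without L1236, 9 without L428 and 8 without Reh. With 1 line left out, only the Hodgkin-only counts without L1236, Reh or Namalwa have a share over all merged regions, given above. The other counts with 1 line left out have no background to be read against. With lists of equal length L1236 had 11 peaks, L428 6 and L591 6, against 2 in Reh and 1 in Namalwa. With the upper 50%, L1236 had 20, L428 14 and L591 16, against 5 in Reh and 0 in Namalwa. Lines with a peak within 2 kb of a start, checked in these shorter lists after seeing the data, were 2 Hodgkin lines for JAK2, 1 for CD274 and 1 for PDCD1LG2 at equal length, and no non-Hodgkin line. The share of other gene starts with such counts was not computed. No paired analysis was possible because replicate numbers follow accession order and pair no lines.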
